A study of Rattus norvegicus with 2 samples.

Results

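The genes described here are the heat shock proteins, their DnaJ cochaperones and BAG partners, and the heat shock factors Hsf1 and Hsf2, as measured in 2 populations of rat natural killer (NK) cells. Members were chosen by symbol. A probe set, the group of short probes that reads a transcript, belonged if its single annotated symbol began with Hspa, Hspb, Hspd, Hspe, Hsph, Dnaja, Dnajb, Dnajc or Bag followed by a digit, began with Hsp90, or was Hsf1 or Hsf2. This gave 108 probe sets of 70 genes, out of 14217 genes with a probe set of their own among 31099 probe sets. NK cells were sorted from spleens of PVG.7b rats aged 8 to 12 weeks as CD3-negative, NKR-P1A-positive cells that carried either NKR-P1B, an inhibitory lectin-like receptor, or Ly49s3, an activating receptor of the Ly49 family. The labels name no treatment. Both populations came from splenic cells depleted with antibodies to TCRαβ, CD68, CD5, the Igκ chain and CD45RA, and sorted cells were over 90% pure. The sources used here do not say how the RNA of 9 rats was pooled. RNA of each population went onto 1 Affymetrix array, so no test was possible, and each value below describes those 2 arrays.

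Heat shock proteins are molecular chaperones, which bind unfolded or partly folded proteins and help them fold, assemble or be destroyed. HSP70 proteins, encoded by Hspa genes, work through cycles of ATP binding. J-domain proteins of the Dnaj families deliver clients and start ATP hydrolysis, while HSP110 and BAG proteins release the nucleotide. HSP90 completes the folding of kinases and receptors, HSP60 and HSP10 form a folding chamber in mitochondria, and small heat shock proteins hold unfolded chains. Under heat or other stress HSF1 binds repeated GAA units in promoters and raises a subset of these genes. In NK cells chaperones also serve the folding of receptors and granule proteins in the endoplasmic reticulum (ER).

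Signal is a linear intensity in arbitrary units, and probe sets differ in sensitivity, so a signal is compared only with that of the same probe set on the other array. A floor, the 50th percentile of all signals of both arrays, was set under every value. A gene was taken as measured if its representative probe set, the one with the highest mean log2 signal, was above the floor on at least 1 array. Differences are log2 of the NKR-P1B+ signal minus log2 of the Ly49s3+ signal. The SD of a difference read from a single probe set came from 1993 genes with further probe sets above the floor. By log2 signal of the dimmer probe set it was 0.323 from the floor to 6 (864 genes) and 0.233 from 6 to 8 (803 genes). It was 0.167 from 8 to 10 (284 genes) and 0.0954 above 10 (42 genes). Variation among rats, sorts or arrays is not part of this spread.

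The sort was checked on the genes of NKR-P1B and NKR-P1A and on cell type markers. The gene of Ly49s3 was not read here, so its signal in Ly49s3+ cells was not checked. Klrb1b, which encodes NKR-P1B, had 1399 in NKR-P1B+ cells and 29.4 in Ly49s3+ cells, and Klrb1a, carried by all sorted cells, had 3740 and 3813. All 11 NK markers with a probe set were measured. For each marker list the sum of the deposited signals of all its genes with a probe set, those below the floor included, is given for NKR-P1B+ and then Ly49s3+ cells. It was 26200 and 22400 for the NK list, where Prf1 had 4024 and 3006. Of its genes, 6 were higher in NKR-P1B+ cells and 5 in Ly49s3+ cells, and the sum is dominated by the brightest. For T cells the sum was 517 and 699, with 6 of 9 genes measured and Cd3d, Cd3e and Cd8b below the floor. Measured T cell genes went both ways, with Cd6 at 273 and 179, Cd5 at 92.7 and 40.8, Trat1 at 86.2 and 346 and Cd3g at 22.3 and 42.9. For B cells the sum was 361 and 371, with 4 of 7 measured and Ms4a1, Cd79b and Blk below the floor. Bank1 had 156 and 248, and Cd22 had 103 and 52.9. Of 5 plasma cell genes 4 were measured, among them Xbp1 (460 and 455), Prdm1 (377 and 353) and Jchain (98.1 and 33.4). All 4 were higher in NKR-P1B+ cells, and the sum of that list was 981 and 864. For macrophages and monocytes it was 446 and 227, with 2 of 12 measured, namely Lyz2 (356 and 133) and Hmox1 (26.8 and 17.4), and with Cd68, Csf1r and Adgre1 below the floor. For dendritic and antigen-presenting cells it was 2955 and 2090, with 7 of 10 measured and Flt3, Clec9a and Ciita below the floor. Genes of that list went both ways, with Itgax, which NK cells also carry, at 2281 and 1716, RT1-Da at 346 and 97.7, RT1-Ba at 30.2 and 36.7 and Batf3 at 4.2 and 83.2. For neutrophils and mast cells the sum was 43.5 and 52.2, with only Cpa3 measured, and only in Ly49s3+ cells (21.0). The erythroid genes Hbb and Hemgn had 276 and 153, and 50.6 and 131. For erythroid cells the sum was 377 and 353, with 4 of 7 measured. For platelets it was 66.2 and 59.7, with only Pf4 measured (30.9 and 26.6), and for stroma and endothelium 114 and 69.3, with only Kdr measured (54.1 and 11.8). The part of these other cells in the differences below was not tested.

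Most chaperone genes had nearly the same signal on both arrays. Of the 70 genes, 58 were measured, 57 of them above the floor on both arrays, and 12 were below it on both. The median difference of the measured genes was 0.04, against −0.02 for all 9114 measured genes, and the median size of the difference regardless of sign was 0.166 against 0.197. Of the 58 genes, 42 differed by less than 0.32 on the log2 scale and 52 by less than 1.5-fold. Those at least 1.5-fold higher in NKR-P1B+ cells were Dnajc6, Hspb6, Dnajc12 and Hspa13, which is 6.90% of the measured members against 5.06% of all measured genes. Those at least 1.5-fold higher in Ly49s3+ cells were Dnajc27 and Bag3, 3.45% against 5.72%. At a log2 difference of at least 0.32, 9 members (15.5%) were higher in NKR-P1B+ cells and 7 (12.1%) in Ly49s3+ cells, against 13.8% and 15.9% of all measured genes. Dnajc6 and Dnajc27 were at least 2-fold apart, 3.45% of the measured members against 2.98% of all. The shares of members past each fold were thus near those of all genes.

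**Figure D1:**
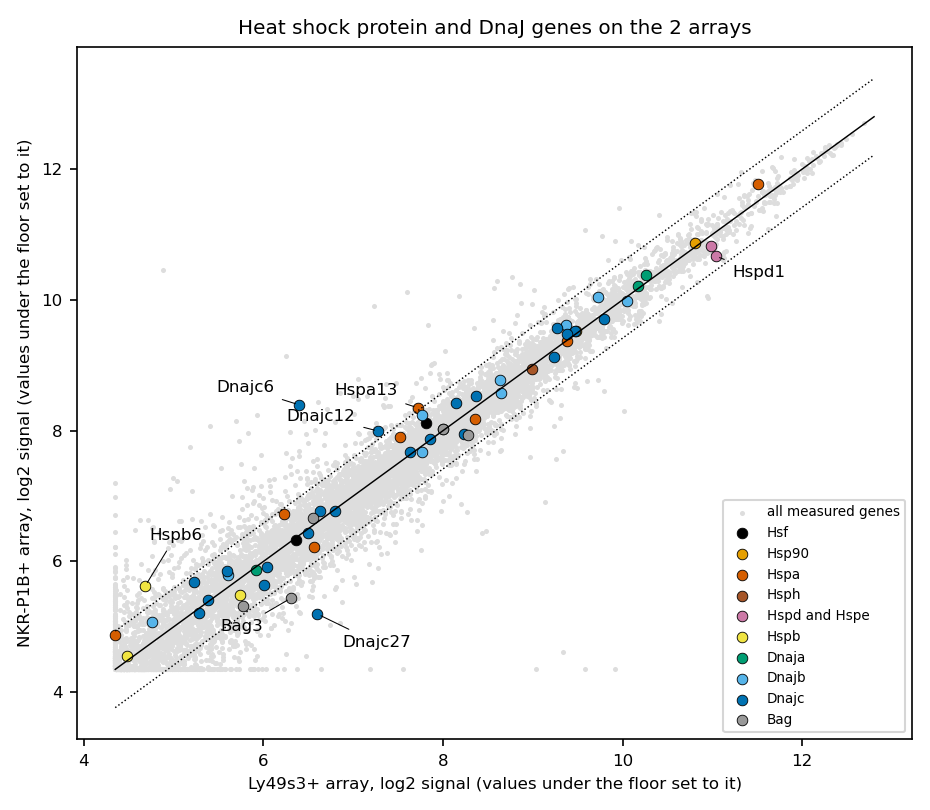
Log2 signal of each measured gene on the Ly49s3+ array (x axis) and the NKR-P1B+ array (y axis), on the deposited scale with values under the floor set to it. Grey points are all 9114 measured genes, coloured points the 58 measured members by family, the solid line marks equal signal and the dotted lines 1.5-fold. All but 6 members lie between the dotted lines, with Dnajc6 farthest above and Dnajc27 farthest below.

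These directions hold on the deposited scale, on which both arrays have nearly the same average. The poly-A spikes, bacterial transcripts that the Affymetrix protocol adds to the RNA, had a median difference of −0.57 over 8 probe sets (−0.90 to −0.35). Scaling the arrays to them moved the median of all measured genes to 0.53 and that of the members to 0.61. The split of members at least 1.5-fold apart then went from 4 and 2 to 33 and 1, and that of all genes from 461 and 521 to 4140 and 104. Of the 24 members higher in Ly49s3+ cells on the deposited scale, 22 took the opposite sign and 2, Dnajc27 and Bag3, kept theirs. Spike scaling multiplies every NKR-P1B+ signal by the same factor, so the differences and the median of all genes shift together. Positions relative to that median stay nearly fixed by construction, here and below, and are no separate check. All 16 members at least 0.32 apart thus stayed on the same side of the median of all genes under both scales. Differences below are on the deposited scale. A negative one from a member's representative probe set, other than those of Dnajc27 and Bag3, is positive under spike scaling.

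The heat shock factors differed little. Hsf1, the main activator of heat shock genes, had 80.4 in NKR-P1B+ cells and 82.2 in Ly49s3+ cells, a difference of −0.03. Hsf2, a related factor that can pair with HSF1, had 277 and 224 on its representative probe set, a difference of 0.31. Its other 3 probe sets gave −0.13, −0.05 and 0.08, so its direction depended on the probe set. Hsf4, outside the rule, was below the floor on both arrays (8.0 and 14.2).

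The HSP90 genes were equal to within 1.1-fold. Hsp90ab1, the constitutive cytosolic form, had 1878 and 1786 on one probe set and 1518 and 1408 on the other, differences of 0.07 and 0.11. Hsp90b1, the HSP90 of the ER, had 738 and 717, a difference of 0.04. The heat-inducible Hsp90aa1 has no probe set of its own. Probe sets shared with its pseudogene Hsp90aa1-ps17 had 2802 and 2736, and 1472 and 1346.

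Among the HSP70 genes, 8 of 11 were measured, with a median of 0.32. Of these, 5 were higher in NKR-P1B+ cells, as were 4340 of all 9114 measured genes. Hspa12b is among the 5 and in the median, yet it passed the filter only through the NKR-P1B+ array, which set its direction. Hspa13, a microsomal HSP70 without a substrate-binding domain, had 326 in NKR-P1B+ cells and 211 in Ly49s3+ cells, 1.55-fold higher on the former. Its difference of 0.63 exceeds the probe-set SD of 0.17 at that signal. Hspa1a, the classic stress-inducible HSP70, had 240 and 183 (1.31-fold), and a probe set shared by Hspa1a and its near-identical copy Hspa1b had 278 and 178 (1.56-fold). Signals of those copies cannot be assigned to a single gene, yet both readings were higher in NKR-P1B+ cells. Hspa2, known from the testis, had 105 and 75.0 (0.49).

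Hspa5, or BiP, the HSP70 of the ER and a target of the unfolded protein response, had 3491 and 2921, a difference of 0.26 beside a probe-set SD of 0.10. Hspa9, the mitochondrial HSP70, had 659 and 666, and its 3 probe sets above the floor gave from −0.33 to −0.02. Hspa14, which works at the ribosome, had 291 and 328 (−0.17), and Hspa4, an HSP110-type exchange factor, had 74.8 and 94.9 (−0.34). The constitutive Hspa8 was read by a probe set shared with Haus8l2, at 3988 and 3812, a difference of 0.07. Hspa12b was above the floor in NKR-P1B+ cells only (29.5 against 13.7), at least 1.45-fold higher there. Its other probe sets were below the floor on both arrays (12.9 and 12.9, and 1.3 and 2.0). Hspa12a, Hspa1l and Hspa4l were below the floor on both arrays. The 5 on the NKR-P1B+ side were thus Hspa13, Hspa12b, Hspa2, Hspa1a and Hspa5, and the 3 on the other side on the deposited scale were Hspa4, Hspa14 and Hspa9.

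The HSP110 gene Hsph1, an inducible exchange factor for HSP70, had 493 and 510 (−0.05), and its other probe set gave 0.15. The chaperonin genes were both higher in Ly49s3+ cells, with a median of −0.27 that became 0.30 under spike scaling, still below the median of all genes there. Hspd1, which encodes HSP60, had 1627 in NKR-P1B+ cells and 2100 in Ly49s3+ cells, a difference of −0.37 beside a probe-set SD of 0.10. Hspe1, which encodes its lid HSP10, had 1808 and 2031, a difference of −0.17. Rat Hspd1 has many annotated pseudogenes, and whether its probe set also reads their transcripts was not tested. Each gene has a single probe set, and at these signals both differences exceed that SD. It rests on 42 genes and leaves out variation among rats, sorts and arrays.

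Small heat shock proteins were mostly not detected. Hspb1 (HSP27), Hspb2, Hspb3 and Hspb8 were below the floor on both arrays, with Hspb1 at 2.7 on each. Hspb6, or HSP20, best known from muscle, had 49.3 in NKR-P1B+ cells and 25.7 in Ly49s3+ cells, a 1.92-fold difference from signals close to the floor. With the floor raised to the 65th percentile of all signals both its values lay at or under the floor and the difference was 0.00. The muscle gene Hspb7 had 45.1 and 53.6, and the testis gene Hspb9 had 23.5 and 22.3.

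The DNAJA genes, general cytosolic and mitochondrial cochaperones of HSP70, were all measured and all within 1.1-fold. Dnaja1 had 1332 and 1226, with differences of 0.12 and 0.11 on its probe sets, and Dnaja2 had 1192 and 1156. Dnaja4 had 261 and 257, and the mitochondrial Dnaja3 had 58.5 and 60.5. The DNAJB family had 9 of 12 genes measured and a median of 0.18. Dnajb1, the main stress-inducible HSP40, had 1012 and 1059 (−0.07), and its second probe set gave −0.08. Dnajb2, which passes clients to the proteasome, had 303 and 217 (1.39-fold, higher in NKR-P1B+ cells), and Dnajb4 had 1051 and 850 (1.24-fold).

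Dnajb9, an ER cochaperone induced by the unfolded protein response, had 781 and 660 (0.24), and Dnajb11, another ER cochaperone, had 380 and 402 (−0.08). Dnajb6, which suppresses aggregation, had 205 and 218 on its own probe set (−0.09), while probe sets shared with its pseudogenes gave 0.24 and 0.28. The ER membrane gene Dnajb14 had 437 and 397 (0.14) and a dim probe set with 25.0 and 33.3 (−0.41), opposite in sign. Its relative Dnajb12 had 33.7 and 27.1 (0.31) on one probe set and 0.20 on the other, and Dnajb5 had 55.3 and 48.7. Dnajb3, Dnajb7 and Dnajb13 were below the floor on both arrays.

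**Figure D2:**
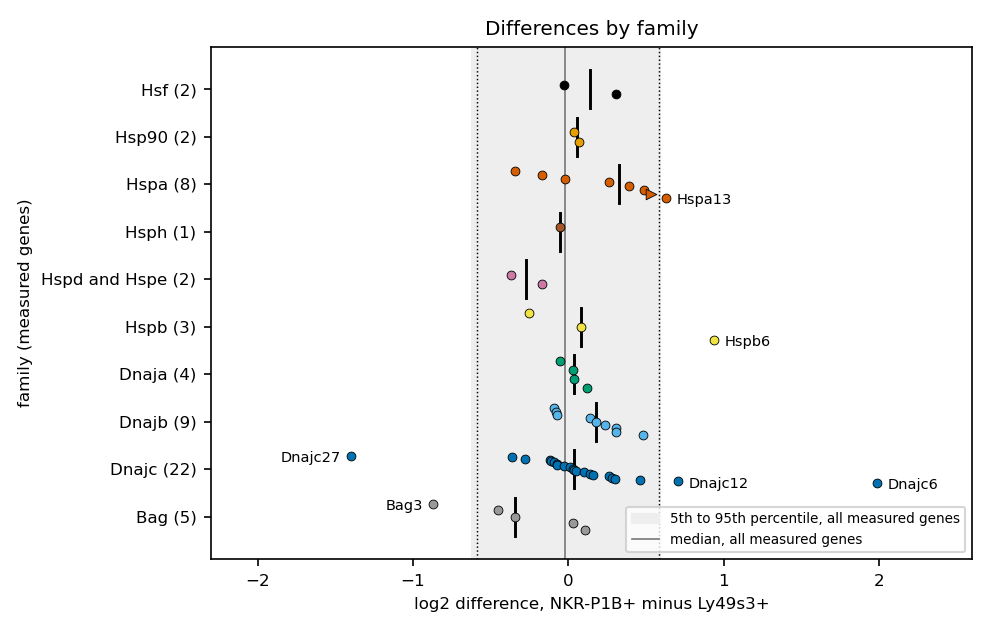
Log2 differences (x axis, NKR-P1B+ minus Ly49s3+, deposited scale) of the measured genes of each family (y axis, number in parentheses). Each point is a gene, the triangle is a lower bound (Hspa12b), black bars are family medians, dotted lines mark 1.5-fold, and grey shows the 5th to 95th percentile and median of all measured genes. Most genes sit inside the grey band, those past 1.5-fold are named, and under spike scaling points move toward the right.

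The DNAJC family, whose members share only the J-domain, was the most varied, with 22 of 23 genes measured, differences from −1.40 to 1.99 and a median of 0.03. Dnajc6 encodes auxilin, which recruits the constitutive HSP70 to strip clathrin from coated vesicles and is best known from neurons. It had 336 in NKR-P1B+ cells and 84.5 in Ly49s3+ cells, 3.98-fold higher on the former, which ranks it as number 19 of 9114 measured genes in that direction. A second Dnajc6 probe set had 71.9 and 8.5, at least 3.52-fold higher on the same array. Both probe sets were thus higher in NKR-P1B+ cells, the second with only a lower bound, and the difference of 1.99 exceeds the probe-set SD of 0.23. In bulk RNA, fewer cells with the transcript and less transcript per cell cannot be told apart.

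Dnajc27, which joins a J-domain to a small GTPase of the Rab type, went the other way. It had 36.7 in NKR-P1B+ cells and 97.0 in Ly49s3+ cells, 2.64-fold higher on the latter and number 33 of 9114 measured genes in that direction. With the floor at the 65th percentile its difference was −0.88 and with log2 of the signal plus 32 it was −0.91, in place of −1.40. Dnajc12, a cochaperone of aromatic amino acid hydroxylases, had 255 and 156, 1.64-fold higher in NKR-P1B+ cells. Each of the latter has a single probe set, so no second reading exists. Dnajc17, linked to splicing, had 51.6 and 37.4 (1.38-fold), which became 0.00 with the higher floor.

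On their representative probe sets the other DNAJC genes were within 1.3-fold. Dnajc1, an ER membrane cochaperone at the ribosome, had 761 and 618 (0.30), although its dim probe set gave −0.07. Dnajc3, an ER cochaperone of BiP, had 370 and 330 (0.16), and Dnajc10, an ER disulfide reductase, had 109 and 111 (−0.03). Dnajc7, which bridges HSP70 and HSP90, had 344 and 283 (0.28), and Dnajc13, an endosomal protein that also meets clathrin, had 248 and 301 (−0.28). Dnajc5, the cysteine string protein of secretory vesicles, had 734 and 706 (0.05), and its other probe sets gave −0.06 and 0.19.

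Other members work in the nucleus, at ribosomes or in mitochondria. Dnajc8, a splicing factor, had 716 and 667, and Dnajc9, a histone cochaperone, had 833 and 884. Dnajc2, the partner of Hspa14 at the ribosome, had 234 and 232. Dnajc21, of ribosome assembly, had 42.7 and 41.9, and Dnajc24, of diphthamide synthesis, had 204 and 198 (0.04). A dim Dnajc24 probe set, above the floor in Ly49s3+ cells only, had 20.3 and 31.9, at least 1.56-fold higher there. With the mean of a gene's probe sets the Dnajc24 difference was −0.30. In mitochondria, the import motor genes Dnajc19 and Dnajc15 had 561 and 604, and 109 and 99.0, and Dnajc11, of the inner membrane folds, reached 64.2 in Ly49s3+ cells, 1.28-fold higher there (−0.36, with −0.16 on its dimmer probe set). Dnajc30 had 86.5 and 90.6, and Dnajc4 had 37.1 and 39.0. Apart from these groups, Dnajc14 had 57.9 and 48.3 (0.26, with −0.10 on its other probe set). Dnajc18, counted with the ER members below, had 60.6 and 65.8. Dnajc22 was below the floor on each array.

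Of the BAG genes, 5 of 6 were measured, with a median of −0.34, which became 0.30 under spike scaling, where Bag2 was measured too, and stayed below the median of all genes. Bag3, a stress-inducible BAG protein that sends HSP70 clients to autophagy together with HSPB8, had 43.4 in NKR-P1B+ cells and 79.2 in Ly49s3+ cells, 1.82-fold higher on the latter. Its difference was −0.56 to −0.87 over 7 other settings and −0.30 under spike scaling. Bag4, a silencer of death domain receptors, had 40.1 and 54.7 (−0.45, and −0.05 with the higher floor), and Bag1, which binds HSP70 and BCL-2, had 246 and 310 (−0.34). Bag5 had 260.7 and 255.9, and Bag6, which handles tail-anchored and mislocalised proteins, had 102 and 94.0. Bag2 was under the floor on each array on the deposited scale (17.7 and 18.1). Those on the Ly49s3+ side on the deposited scale were thus Bag1, Bag3 and Bag4.

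Readings from several probe sets bounded how far single values can be taken. Of 27 members with more than 1 probe set, 13 had at least a pair above the floor on both arrays, and in 7 of these all signs were alike. The bright genes Dnaja1, Dnajb1 and Hsp90ab1 had probe sets within 0.04 of each other. Dnajb14, Hsf2, Dnajc1 and Dnajc14 had probe sets from 0.36 to 0.55 apart with opposite signs, and Dnajc5 and Hsph1 also had both signs. None of the 13 genes had a probe set past 1.5-fold.

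**Figure D3:**
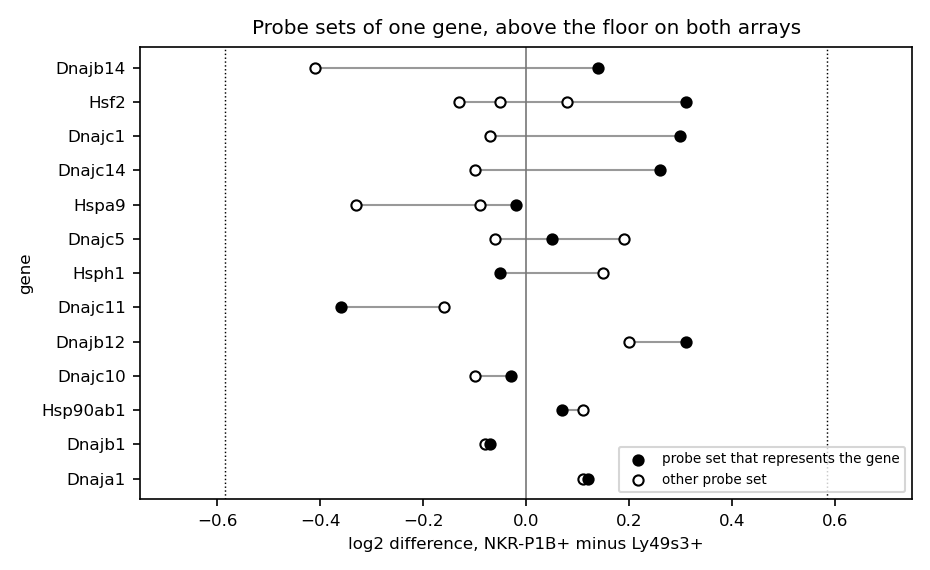
Log2 differences (x axis, NKR-P1B+ minus Ly49s3+, deposited scale) of every probe set above the floor on both arrays, for the 13 members with more than 1 such probe set (y axis). Filled circles are the probe sets that represent the gene, open circles the others, grey lines their range and dotted lines 1.5-fold. Dnaja1 and Dnajb1 have nearly identical readings, and Dnajb14 has the widest gap, 0.55.

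By role, the genes known to be induced by heat shock lay on both sides. Of 11 such members with a probe set, 8 were measured, with 3 higher in NKR-P1B+ cells, 5 in Ly49s3+ cells and a median of −0.06 (0.51 under spike scaling, against 0.53 for all genes). The extremes were Hspa1a at 0.39 and Bag3 at −0.87. The 12 constitutive cytosolic members had a median of 0.03, with 8 higher in NKR-P1B+ cells, 4 in Ly49s3+ cells and none 1.5-fold apart. The 11 ER members had a median of 0.16, with 8 higher in NKR-P1B+ cells, Hspa13 the only one past 1.5-fold. Of these 8, Hsp90b1 (0.04), Dnajb14 (0.14), Dnajc3 (0.16) and Dnajb12 (0.31) differed by less than their probe-set SD. So did the ER members on the other side, Dnajc10 (−0.03), Dnajb11 (−0.08) and Dnajc18 (−0.12). Dnajb14 and Dnajc1 also had a dim probe set of opposite sign. The 9 mitochondrial members had a median of −0.07, with 8 higher in Ly49s3+ cells, Dnajc15 alone on the other side and none 1.5-fold apart. Among the 8, Hspa9 (−0.02), Dnaja3 (−0.05), Dnajc4 (−0.07), Dnajc30 (−0.07) and Dnajc19 (−0.11) differed by less than their probe-set SD. Hspd1 and Hspe1 are counted in the inducible group too. Of all 9114 measured genes, 4340 were higher in NKR-P1B+ cells and 4753 in Ly49s3+ cells. The ER median stood 0.18 above and the mitochondrial median 0.05 below that of all genes. Under spike scaling, which keeps such distances nearly fixed, they stood 0.20 above and 0.03 below it. Of 10 muscle or testis members 4 were measured, with a median of 0.28.

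Promoters are shown for 3 reasons. The adjacent chaperonin genes and Hsph1 are the members with a 3-unit match, Bag3 is the inducible gene with the lowest difference, and Dnajc6 and Dnajc27 are the members at least 2-fold apart. Windows are the 250 bases before the annotated start, 5′ to 3′ on the gene's strand, from RefSeq on GRCr8. They were searched for the heat shock element letters GAANNTTC and TTCNNGAA, each its own reverse complement, which therefore cover both strands, and for 3-unit forms in which GAANNTTC is followed by NNGAA, or TTCNNGAA by NNTTC. Capitals mark matches, with overlapping matches merged, and lower case is the rest. Hspd1 and Hspe1 are divergent genes with 289 bases between their starts, so the region between them is upstream of both, and their windows share 211 bases. Since it also lies within the annotated extent of Hspd1, only the 30 bases around the shared matches are printed (chr9:64084256-64084285, plus strand, that of Hspe1). Hsph1 lies at chr12:10427118-10427367 (plus), Bag3 at chr1:192533210-192533459 (plus), Dnajc6 at chr5:121289949-121290198 (plus, inside the longer annotated extent of Dnajc6 and inside a long noncoding RNA gene) and Dnajc27 at chr6:32787985-32788234 (plus).
Hspe1 and Hspd1: gctcggTTCTAGAACCTTCCGGAAggcccc
Hsph1: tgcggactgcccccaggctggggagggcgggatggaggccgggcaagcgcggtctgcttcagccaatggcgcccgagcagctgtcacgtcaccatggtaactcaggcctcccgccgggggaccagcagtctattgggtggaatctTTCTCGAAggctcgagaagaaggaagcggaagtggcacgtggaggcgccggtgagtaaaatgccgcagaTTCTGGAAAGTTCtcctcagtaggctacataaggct
Bag3: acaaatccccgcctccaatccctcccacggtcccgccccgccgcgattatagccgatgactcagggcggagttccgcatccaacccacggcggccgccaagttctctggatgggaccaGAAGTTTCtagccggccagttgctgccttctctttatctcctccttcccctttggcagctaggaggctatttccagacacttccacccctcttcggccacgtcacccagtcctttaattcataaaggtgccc
Dnajc6: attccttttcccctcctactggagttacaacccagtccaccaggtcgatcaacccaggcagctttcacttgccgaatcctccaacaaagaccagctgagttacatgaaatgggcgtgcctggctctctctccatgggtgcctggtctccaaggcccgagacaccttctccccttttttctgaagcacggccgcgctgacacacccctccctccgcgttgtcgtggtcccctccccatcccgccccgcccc
Dnajc27: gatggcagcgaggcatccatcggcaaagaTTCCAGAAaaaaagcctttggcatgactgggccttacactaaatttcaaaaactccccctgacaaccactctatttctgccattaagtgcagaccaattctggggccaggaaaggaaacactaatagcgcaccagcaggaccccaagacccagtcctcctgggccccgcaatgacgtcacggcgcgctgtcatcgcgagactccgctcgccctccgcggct

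The chaperonin window holds 3 overlapping 2-unit matches that form 2 overlapping 3-unit matches, Hsph1 holds 3 and 1, Bag3 and Dnajc27 hold 1 and 0, and the Dnajc6 window holds neither. Among all 33469 promoters, 13.5% held a 2-unit match and 0.663% a 3-unit match. Of the 57 members in the table, 14 (24.6%) held the former and 3 (5.26%) the latter, Hspd1 and Hspe1 being 2 of these 3 through the same bases. Measured members with a 2-unit match had a median difference of −0.08 (12 genes, 9 of them higher in Ly49s3+ cells). Those without had 0.08 (36 genes, 12 higher there), and of all 9114 measured genes 4753 were higher there. Hspd1 and Hspe1 are both among the 9 through the same bases. Hspa9 (−0.02), Hsph1 (−0.05), Dnajb1 (−0.07), Dnajb6 (−0.09) and Dnajc18 (−0.12), also among them, differed by less than their probe-set SD. A link between match and direction was not tested. Among the 7 measured inducible members in the table, 6 held a match, namely Bag3, Hspd1, Hspe1, Dnajb1, Hsph1 and Dnaja1, and their differences ran from −0.87 to 0.12. Hspa1a, the inducible gene with the highest difference (0.39), had no match in its window. That window lies within the annotated extent of Hspa1l and so is not printed. Bases outside it were not searched, so a lack of such elements at Hspa1a was not shown. A match is only a match of letters, and whether a factor binds there was not measured.

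Lists of other folding genes, some of which share members, had medians near that of all genes. HSP70 and HSP90 cochaperones outside the families were all measured, 23 genes with a median of −0.02, 1 at least 1.5-fold higher in NKR-P1B+ cells (5.06% of all genes) and none in Ly49s3+ cells (5.72%). That gene was Grpel2, a mitochondrial nucleotide exchange factor (52.8 against 34.3, 1.54-fold). Sil1, which releases nucleotide from BiP, was just short of 1.5-fold (65 against 43.4). The 13 genes of the cytosolic chaperonin TRiC and of prefoldin had a median of 0.02 and none past 1.5-fold. The 10 measured of 12 HSF1 targets outside the families had a median of −0.08 and none past 1.5-fold, with Serpinh1 and Cryab below the floor. The 8 mitochondrial proteases had a median of 0.04 and none past 1.5-fold.

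Genes of stress signalling are given beside the chaperones, with no test of a difference between the groups. Of 22 genes of the unfolded protein response and ER folding, 2 were at least 1.5-fold higher in NKR-P1B+ cells and none in Ly49s3+ cells, with a median of 0.06, where 5.06% and 5.72% of all measured genes passed that fold. They were Ppp1r15a, which restores translation after stress (526 against 238, 2.21-fold), and Ddit3, a transcription factor of ER stress (610 against 406, a difference of 0.59). Atf4, their shared activator, had 2718 and 1915 (1.42-fold), whereas Xbp1 had 460 and 455 and Herpud1 had 723 and 815. Of 23 measured immediate early genes, 6 were at least 1.5-fold higher in NKR-P1B+ cells and none in Ly49s3+ cells, against the same 5.06% and 5.72% of all genes, with a median of 0.27, or 0.82 against 0.53 for all genes under spike scaling. Atf3 had 206 and 84.4 (2.44-fold), Gadd45a 246 and 134 (1.84-fold) and Dusp1 1908 and 1096 (1.74-fold). These genes respond to cell handling as well as to signals, and their part in the higher Hspa1a reading was not tested.

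**Figure D4:**
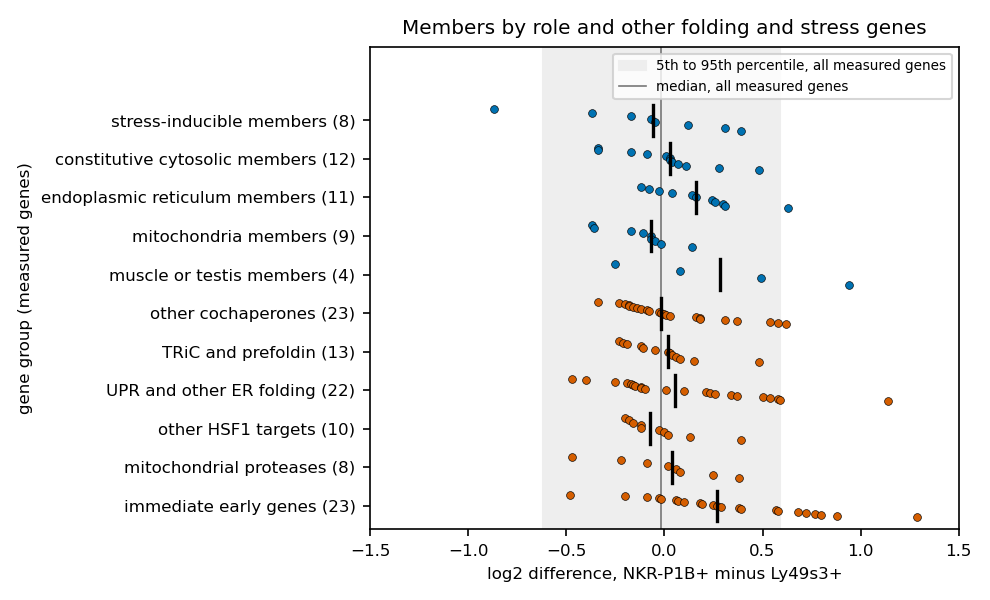
Log2 differences (x axis, NKR-P1B+ minus Ly49s3+, deposited scale) of members grouped by role (blue) and of other folding and stress genes (orange), each point a measured gene, with the number of genes in parentheses on the y axis. Black bars are medians and grey shows the 5th to 95th percentile and median of all measured genes. Medians run from −0.08 to 0.28, the highest being those of the 4 muscle or testis members and of the immediate early genes (0.27), and under spike scaling points move toward the right.

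Across 8 other settings of floor, scale and probe-set choice, Dnajc6 ran from 1.66 to 2.56, Dnajc12 from 0.61 to 1.28, Hspa13 from 0.56 to 1.20 and Dnajc27 from −1.40 to −0.83. Hspb6 ran from 0.00 to 1.51, and Hspd1 from −0.42 to 0.20. The upper ends of the first 3, of Dnajc27, of Hspb6 and of Hspd1 are those of spike scaling. Low signals made the difference of Hspb6 depend on the floor, while Dnajc6 stayed at least 1.5-fold higher in NKR-P1B+ cells in each setting.

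**Figure D5:**
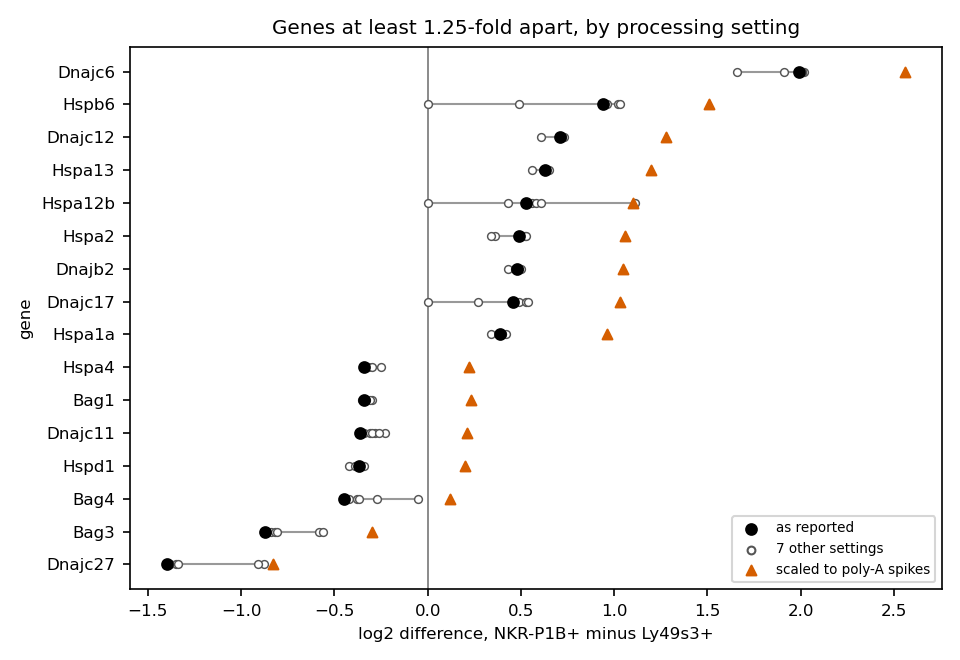
Log2 differences (x axis, NKR-P1B+ minus Ly49s3+) of the 16 members at least 0.32 apart (y axis), as reported (black), under 7 other settings of floor, scale or probe-set choice (open) and with arrays scaled to the poly-A spikes (triangles). Dnajc6 remains the highest and Dnajc27 the lowest on the deposited scale, Hspb6, Hspa12b and Dnajc17 reach 0.00 with the higher floor, and spike scaling moves every gene toward the right.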

How the data were processed

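Total RNA (3 ug per population) was labelled with biotin and hybridised to Affymetrix rat expression arrays, 1 for each population, per the labels. The deposited values are linear intensity values per probe set, computed by the authors with MAS5 per the submitters' processing notes, with a scaling target not given in the sources used here. Median signals were 19.6 for NKR-P1B+ and 21.3 for Ly49s3+ cells, and the highest 6639 and 6622. The actin control had a 3′ to 5′ ratio of 11.9 for NKR-P1B+ and 13.2 for Ly49s3+ cells, and the Gapdh control 2.84 and 2.77. Signal was thus stronger toward the 3′ end on both arrays, far more so for actin. The effect of RNA quality on the differences was not tested. Intensities under the 50th percentile over both arrays, control probe sets left out, were raised to it. Values were then converted to log2 and subtracted, with no p-value, since 1 array per population leaves no residual degrees of freedom. The number of arrays limits the precision.

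Gene names came from the platform annotation, and all 70 member symbols matched RefSeq (GRCr8) by gene number. Another 6 probe sets that carry several symbols, a chaperone among them, are named as such where used. The rule named members at least 0.32 apart on the log2 scale, both Hsf genes and the 4 with the highest signal per family. It also named those whose probe sets disagreed by 0.58 or in sign beyond 0.32. Of each folding or stress list it named up to 3 genes per direction past 1.5-fold. Of each marker list it named up to 2 genes, the brightest measured. Other members and genes named were chosen with their values known. The folds of 1.5 and 2 served for counts. The members, the role groups, the folding and stress lists and the marker lists were chosen with earlier results of these data known. Functions were tested on simulated data. Python 3.11.15, pandas 2.3.3, numpy 2.4.6 and statsmodels 0.14.6 were used. Other settings were floors at the 35th and 65th percentiles, log2 of the value plus 32, centring, quantile normalisation, a loess trend (span 0.3), spike scaling, the mean of a gene's probe sets, other filters, probe sets as units and a wider symbol rule.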

Additional observations from a re-analysis of the deposited data

How the results depend on the processing

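The counts of members past 1.5-fold, 4 toward NKR-P1B+ and 2 toward Ly49s3+ cells, and the medians of 0.04 for all measured members and −0.06 for the inducible ones were recomputed under 13 other settings. With log2 of the value plus 32, which shrinks ratios of low signals by construction, the counts were 2 and 1. With arrays scaled to the poly-A spikes they were 33 and 1, and the medians 0.61 and 0.51; the cause of the spike difference was not tested. Without a filter the median of the members was 0.00, since the 12 undetected genes then enter at no difference. In the other settings the counts stayed within 1.5 times and the medians within the probe-set spread; including probe sets of several symbols, chosen after seeing the data, gave 5 and 2. Of 464 recomputed differences of single genes, 71 moved by more than the probe-set SD, 58 of them under spike scaling, and none past 1.5-fold changed sign. No paired analysis was possible because each population has 1 array. Signals near the floor, such as those of Hspb6, Hspa12b, Dnajc17 and Bag4, limit the values of those genes.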
